A study of Mus musculus with 8 samples.

Results

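Wnt signalling genes were followed across 16 transplanted mouse mammary tumours, each hybridised in its own channel of a 2-colour Agilent array. The set held 61 genes chosen by symbol: the Wnt, Fzd, Sfrp, Dkk and Rspo families, Lrp5, Lrp6, Lgr4 to Lgr6, Axin1, Axin2, Apc, Gsk3b, Btrc, Ctnnb1, the Tcf/Lef genes, Wif1, Porcn, Rnf43, Znrf3 and Myc. All 61 were on the array, through 78 of its 28026 probes with a gene symbol. Probes that were called well above background throughout at least 1 of the groups were kept, which left 46 members among 14131 genes tested. The 15 others were Wnt2, Wnt2b, Wnt3, Wnt3a, Wnt7a, Wnt8a, Wnt8b, Wnt9b, Wnt10b, Rspo2, Rspo3, Rspo4, Dkk1, Dkk2 and Dkk4, each well above background in between 0 and 7 of the 16 tumours.

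Each tumour arose from a transplanted piece of an MMTV-PyMT tumour, in which the mouse mammary tumour virus promoter drives polyoma middle T antigen in mammary epithelium, set orthotopically into wild-type FVB mice. RANK-Fc, a soluble fusion protein that captures RANK ligand, was given intraperitoneally at 10 mg/kg 3 times a week. Passage 1 held 2 control tumours and 3 tumours with RANK-Fc. Passage 2 held 2 control tumours, 3 with RANK-Fc in passage 2 only (adjuvant, called current here), 3 with neoadjuvant RANK-Fc only (called prior here) and 3 with both. The group codes are read here as placing the neoadjuvant treatment in passage 1. Each tumour came from its own animal by label, the labels tie no passage 2 tumour to a passage 1 tumour, and tumours of a passage 2 group may therefore share a donor. Levels are log2 intensities, which rank tumours for 1 gene but not genes against each other.

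Wnt proteins are lipid-modified ligands that bind frizzled receptors together with the co-receptors Lrp5 or Lrp6. Without ligand, a complex of Axin, Apc and Gsk3b marks beta-catenin, the product of Ctnnb1, for removal through the ubiquitin ligase subunit Btrc. With ligand, beta-catenin accumulates and acts with Tcf/Lef factors on targets that include Axin2, Rnf43 and Znrf3. Rnf43 and Znrf3 remove frizzled receptors from the cell surface, and R-spondins acting through Lgr4, Lgr5 and Lgr6 block that removal. In the mammary gland the pathway is known for roles in basal and stem cells, and Rspo1 and Wnt4 are known as hormone-induced signals.

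Promoter windows are shown for 3 members whose levels parted the passages, chosen after their values were seen: Axin2 and Lgr6, which were higher in passage 2, and Fzd1, which was lower. Each window is the 250 bases before the gene's start, from RefSeq on build GRCm38.p6, which is not the mm9 build of the array design. They lie at chr11:108920099-108920348 on the + strand for Axin2, chr1:135105277-135105526 on the - strand for Lgr6 and chr5:4758217-4758466 on the - strand for Fzd1. Capitals mark the core of the Tcf/Lef recognition sequence, searched as CTTTGA and CTTTGT on both strands.
Axin2: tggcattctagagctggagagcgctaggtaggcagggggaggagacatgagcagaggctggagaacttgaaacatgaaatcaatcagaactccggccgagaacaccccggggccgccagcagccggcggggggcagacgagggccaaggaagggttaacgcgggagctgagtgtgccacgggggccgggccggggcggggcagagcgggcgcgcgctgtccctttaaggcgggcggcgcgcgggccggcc
Lgr6: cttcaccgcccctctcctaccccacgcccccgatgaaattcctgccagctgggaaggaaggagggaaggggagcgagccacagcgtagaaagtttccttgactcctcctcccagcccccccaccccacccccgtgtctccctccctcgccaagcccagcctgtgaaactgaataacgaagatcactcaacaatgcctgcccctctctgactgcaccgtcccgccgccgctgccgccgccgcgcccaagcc
Fzd1: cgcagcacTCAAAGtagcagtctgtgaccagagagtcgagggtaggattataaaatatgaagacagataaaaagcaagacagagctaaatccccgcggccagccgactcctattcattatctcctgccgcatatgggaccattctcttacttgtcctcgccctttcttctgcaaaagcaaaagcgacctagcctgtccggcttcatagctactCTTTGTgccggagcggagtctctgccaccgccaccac
The core was found 2 times in the Fzd1 window and not in these windows of Axin2 and Lgr6. Over all 32851 windows of the table, 27.6% held it, and of the 48 windows that matched 38 of the members, 11 held it. A match is a description of letters and not of binding.

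The mean of 10 epithelial markers lay between 11.8 and 12.1 in passage 1 and between 12.0 and 12.2 in passage 2. Fibroblast markers varied more, from 10.5 to 11.1 in passage 1 and from 9.61 to 12.1 in passage 2, where the median was 10.1. Current RANK-Fc replicate 3 stood apart with the value of 12.1, next to 11.02 in prior RANK-Fc replicate 1. These 2 tumours also held the most skeletal muscle signal, with means over 4 measured markers of 9.01 and 9.97 against at most 7.66 elsewhere. Adipocyte markers ranged from 8.43 to 10.97 in passage 1, highest in control replicate 1, and from 7.61 to 9.57 in passage 2. Squamous epithelial markers, 5 of 11 measured, lay between 7.49 and 7.72 in passage 1 and between 7.75 and 8.72 in passage 2, without overlap. In whole tumour pieces, fewer cells of a type and less RNA per cell cannot be told apart.

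At least 1 gene of every Wnt role but the ligands passed the test between the passages. Among the secreted inhibitors this was Sfrp1 alone, and among the Tcf/Lef factors and Myc it was Myc alone. Passage 2 was set against passage 1 with the controls and the currently treated groups averaged, which leaves out the 6 tumours with prior RANK-Fc. By limma with Benjamini-Hochberg adjustment over all 14131 genes, 12 of the 46 members changed at an adjusted p under 0.05, a share of 26.1%, beside 12% of all genes. Axin2, Lgr6, Znrf3, Lgr4, Fzd10 and Myc rose, and Fzd1, Fzd4, Fzd9, Lrp6, Btrc and Sfrp1 fell. Axin2 and Fzd10 were kept only through passage 2 groups, where they were higher. Their place in this count is no support for a difference. Of all genes, 4.24% rose and 7.71% fell, so 35.5% of its calls were higher, and 23.4% with median centring, where 3 members rose and 6 fell. The median difference was 0.05 over the members and -0.002 over all genes, both on the log2 scale. Over the same tumours the mean of the markers differed by -0.59 for fibroblasts, -0.97 for adipocytes and 0.42 for squamous epithelium, with 0 markers of these lists called, and their part in the changes of the members was not tested.

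**Figure D1:**
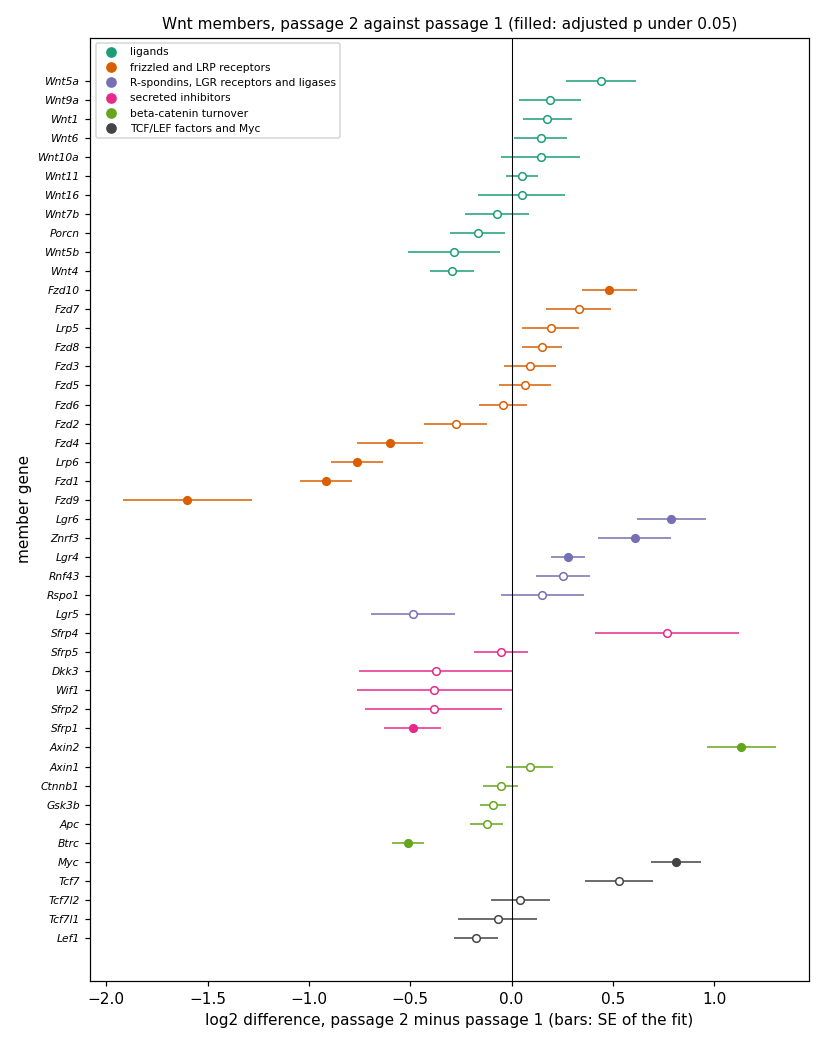
Log2 difference (passage 2 minus passage 1, x axis) of each of the 46 members (y axis), coloured by role, with bars for the standard error of the fit and filled points for an adjusted p under 0.05. The filled points are 6 to the right and 6 to the left of 0, with none among the ligands.

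None of the 11 measured ligands and ligand-processing genes passed the test between passages, where 7 lay above 0 and 4 below. Wnt5a, a ligand best known for beta-catenin-independent signalling, was 0.44 ± 0.17 (SE) higher on the log2 scale in passage 2 (adjusted p = 0.123). Wnt4 was 0.29 ± 0.11 lower (log2 -0.29, adjusted p = 0.107) and was well above background in 15 of 16 tumours. Wnt5b, a ligand related to Wnt5a, differed by -0.28 ± 0.23.

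Among the 12 frizzled and LRP receptors, 1 rose and 4 fell. Fzd1, a receptor of the beta-catenin branch, read 9.97 and 10.03 in passage 1 controls, 9.77, 9.91 and 9.80 with RANK-Fc in passage 1, 8.80 and 8.76 in passage 2 controls, 9.15, 8.76 and 9.61 with current, 9.51, 9.24 and 9.12 with prior, and 8.62, 8.90 and 8.87 with prior and current RANK-Fc. All 5 passage 1 tumours were above all 11 of passage 2. Fzd1 was 1.89-fold lower in passage 2 (log2 -0.92 ± 0.13, adjusted p = 0.000959) and 2.28-fold lower when the controls alone were compared (adjusted p = 0.00931). The 2 passage 2 tumours with the highest Fzd1 were current replicate 3 and prior replicate 1, which were also the highest in fibroblast markers.

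Fzd9, another frizzled receptor, had the widest passage difference of the receptors. Its levels were 9.58 and 10.63 in passage 1 controls, 9.65, 10.07 and 10.20 with RANK-Fc in passage 1, 8.34 and 8.47 in passage 2 controls, 8.74, 8.02 and 8.54 with current, 8.62, 8.93 and 9.88 with prior, and 8.88, 9.35 and 8.16 with prior and current RANK-Fc. The passages overlapped only through prior replicate 3, at 9.88. The difference was -1.60 ± 0.32, or 3.03-fold lower (adjusted p = 0.00649), and in the controls alone -1.58 ± 0.48 (adjusted p = 0.109).

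Lrp6, a co-receptor needed for the beta-catenin branch, read 12.04 and 12.35 in passage 1 controls, 11.90, 12.23 and 12.38 with RANK-Fc in passage 1, 11.52 and 11.10 in passage 2 controls, 11.62, 10.998 and 11.73 with current, 11.62, 11.95 and 11.56 with prior, and 11.18, 11.19 and 11.70 with prior and current RANK-Fc. A single passage 2 tumour, prior replicate 2 at 11.95, reached into the passage 1 range. Lrp6 was 1.70-fold lower in passage 2 (log2 -0.76 ± 0.13, adjusted p = 0.00238). Its second passing probe gave a log2 difference of -0.28. Lrp5, the related co-receptor, did not pass, at 0.19 ± 0.14.

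Fzd4, known as the receptor of norrin in blood vessels, read 9.74 and 8.82 in passage 1 controls and 9.16, 9.37 and 8.97 with RANK-Fc. In passage 2 its values were 8.72 and 8.46 in controls, 8.59, 8.64 and 8.48 with current, 8.48, 8.11 and 8.70 with prior, and 8.58, 8.26 and 8.70 with prior and current RANK-Fc. The passages did not overlap, and the level was 1.52-fold lower in passage 2 (log2 -0.60 ± 0.16, adjusted p = 0.0305). The call was lost without the dye term and without any of passage 1 control replicate 1, passage 1 RANK-Fc replicate 2, either passage 2 control or current replicate 2, at log2 differences down to -0.40. Endothelial markers, which include the vessel genes Pecam1 and Cdh5, had means of 8.44 to 8.86 in passage 1 and of 8.27 to 8.80 in passage 2, and 0 of the 10 passed the test between passages. Passage 1 control replicate 1, which had the highest Fzd4, also had the highest endothelial and adipocyte marker means. The part of these markers in the Fzd4 difference was not tested.

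Fzd10, the receptor that rose, was dim and well above background in 14 of 16 tumours. It read 6.21 and 6.49 in passage 1 controls, 6.46, 7.12 and 6.44 with RANK-Fc in passage 1, and 6.89 and 7.32 in passage 2 controls. With current RANK-Fc it read 7.06, 6.67 and 6.95, with prior 7.07, 6.88 and 7.04, and with both 6.89, 7.20 and 7.07. Passage 1 RANK-Fc replicate 2 lay among the passage 2 tumours and the other 4 passage 1 tumours lay below them all. The difference was 0.48 ± 0.14 (adjusted p = 0.0371). Fzd10 was kept only through the passage 2 groups, where it was higher. Its place among the calls is therefore no support for a difference. The call was lost with median centring or without the dye term, and without any control, passage 1 RANK-Fc replicate 1 or 3, current replicate 1 or 3, or prior replicate 1.

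Of the 6 measured R-spondin, LGR and ligase genes, 3 rose and 0 fell. Lgr6, an R-spondin receptor, read 6.92 and 7.19 in passage 1 controls, 7.18, 7.26 and 6.96 with RANK-Fc in passage 1, 7.98 and 8.52 in passage 2 controls, 7.78, 7.66 and 7.31 with current, 8.22, 8.16 and 8.28 with prior, and 7.85, 8.23 and 7.38 with prior and current RANK-Fc. Every passage 2 tumour was above every passage 1 tumour, with current replicate 3 and prior and current replicate 3 closest to passage 1. Lgr6 was 1.73-fold higher in passage 2 (log2 0.79 ± 0.17, adjusted p = 0.0106) and 2.25-fold higher in the controls alone (adjusted p = 0.0296). Without passage 1 control replicate 1 or passage 2 control replicate 2, neither call held.

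Znrf3, the ligase that clears frizzled receptors, read 6.92 and 7.21 in passage 1 controls, 7.30, 7.33 and 7.08 with RANK-Fc in passage 1, 7.87 and 8.27 in passage 2 controls, 7.83, 7.78 and 7.31 with current, 7.59, 8.25 and 8.17 with prior, and 8.14, 8.81 and 8.56 with prior and current RANK-Fc. Only current replicate 3, at 7.31, fell within the passage 1 range. Znrf3 was 1.52-fold higher in passage 2 (log2 0.61 ± 0.18, adjusted p = 0.0447). The call held in 4 of 11 alternative settings, over which the difference ran from 0.17 to 1.02, and was lost without any control, any passage 1 RANK-Fc tumour, or current replicate 1 or 2. Rnf43, the other ligase, did not pass: it ranged over 11.25 to 11.57 in passage 1 and 11.09 to 12.17 in passage 2.

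Lgr4, an R-spondin receptor, lay between 6.77 and 6.86 in the 5 passage 1 tumours, and read 7.08 and 7.17 in passage 2 controls, 7.10, 7.13 and 7.0 with current, 7.13, 6.86 and 7.10 with prior, and 6.92, 7.05 and 6.60 with prior and current RANK-Fc. Prior and current replicate 3 was the lowest of all 16 tumours. The rise of 0.28 ± 0.08 passed narrowly (adjusted p = 0.0475) and held in only 3 of the 16 leave-one-out fits, those without passage 2 control replicate 1 or without prior and current replicate 2 or 3. Lgr5, the stem cell marker of the family, was lower by a log2 of -0.49 ± 0.21 and did not pass (adjusted p = 0.158).

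Of the 6 measured secreted inhibitors, Sfrp1 fell and the other 5 did not pass. Sfrp1, a frizzled-related protein that binds Wnt ligands, read 8.15 and 8.13 in passage 1 controls, 7.70, 7.67 and 8.18 with RANK-Fc in passage 1, 7.30 and 7.09 in passage 2 controls, 7.52, 7.70 and 7.94 with current, 7.72, 7.32 and 7.98 with prior, and 7.55, 7.55 and 7.55 with prior and current RANK-Fc. The controls of the passages were well apart and the treated tumours overlapped. Sfrp1 was 1.40-fold lower in passage 2 averaged (log2 -0.49 ± 0.14, adjusted p = 0.0389) and 1.82-fold lower in controls (adjusted p = 0.0457). The first call was lost on processed signals, with no filter, with the uncorrected correlation and with log ratios alone, at differences from -0.74 to -0.23 over all settings. It was also lost without any control, current replicate 1 or 2, or prior and current replicate 1, and the second held only without current replicate 2 or 3, passage 1 RANK-Fc replicate 3, or prior replicate 2 or 3. Fibroblast markers had a median passage difference of -0.65 with 0 of 15 passing the test, and their part in the Sfrp1 and Fzd1 differences was not tested.

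Within the beta-catenin turnover group, Axin2 rose and Btrc fell, while Axin1, Apc, Gsk3b and Ctnnb1 did not pass. Axin2, a scaffold of the destruction complex and a widely used target gene of the pathway, was well above background in all 11 passage 2 tumours and in 0 of the 5 of passage 1. It read 7.64 and 8.04 in passage 2 controls, 7.47, 7.36 and 7.10 with current, 7.26, 7.74 and 7.75 with prior, and 7.23, 8.06 and 7.83 with prior and current RANK-Fc, against 6.20 to 6.64 in passage 1. No tumour overlapped. For a fold from group means, each passage 1 tumour was set at the higher of its own signal and the lowest signal counted as well above background on its channel. Without the dye term, these means gave 2.31-fold in passage 2 and 2.90-fold in the controls. The limma fit, which holds the dye term, gave smaller differences. For Axin2 they were a log2 of 1.13 (adjusted p = 0.00130), and 1.45 in the controls (adjusted p = 0.0127). Its second passing probe, well above background in 9 tumours, gave a log2 difference of 0.37, and the mean of both 0.75.

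Btrc, the subunit that delivers beta-catenin to degradation, read 8.20 and 7.95 in passage 1 controls, 7.65, 7.72 and 7.73 with RANK-Fc in passage 1, 7.27 and 7.38 in passage 2 controls, 7.48, 7.42 and 7.39 with current, 7.54, 7.57 and 7.44 with prior, and 7.39, 7.51 and 7.68 with prior and current RANK-Fc. Passage 1 controls were highest, and prior and current replicate 3 at 7.68 was the only passage 2 tumour inside the passage 1 range. Btrc was 1.43-fold lower in passage 2 (log2 -0.51 ± 0.08, adjusted p = 0.00134). A further Btrc probe, well above background in 10 tumours and below the filter, gave a log2 difference of -0.00017.

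Ctnnb1, which encodes beta-catenin itself, differed between passages by -0.05 ± 0.09. Its tumours lay between 12.15 and 12.83, with the values 12.41 and 12.43 in passage 1 controls, 12.41, 12.58 and 12.39 with RANK-Fc, 12.56 and 12.38 in passage 2 controls, 12.24, 12.39 and 12.30 with current, 12.83, 12.62 and 12.57 with prior, and 12.39, 12.56 and 12.15 with both. Prior replicates 1 and 2 were the highest of the 16, and the third prior tumour lay just under a passage 1 tumour at 12.58.

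Among the Tcf/Lef factors and Myc, Myc rose. Myc, a growth-promoting transcription factor and cited target of the pathway, read 9.87 and 10.02 in passage 1 controls, 9.80, 9.45 and 9.89 with RANK-Fc in passage 1, 10.51 and 10.95 in passage 2 controls, 10.80, 10.36 and 10.69 with current, 10.08, 10.72 and 10.22 with prior, and 10.41, 10.63 and 11.08 with prior and current RANK-Fc. The passages did not overlap. Myc was 1.76-fold higher in passage 2 (log2 0.81 ± 0.12, adjusted p = 0.00136), and 1.68-fold higher in the controls alone, where it passed narrowly (adjusted p = 0.0483). The controls call held in 4 of the 16 leave-one-out fits, those without passage 1 RANK-Fc replicate 1 or 2, prior replicate 2, or prior and current replicate 3.

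Tcf7, a Tcf/Lef factor, missed the threshold between passages (0.53 ± 0.17, adjusted p = 0.0626) and passed the test over all 6 groups. It read 7.63 and 7.09 in passage 1 controls, 7.23, 6.98 and 7.27 with RANK-Fc in passage 1, 7.76 and 8.28 in passage 2 controls, 7.72, 7.60 and 7.495 with current, 8.08, 8.15 and 8.05 with prior, and 8.003, 8.64 and 7.76 with prior and current RANK-Fc. Passage 1 control replicate 1, at 7.63, was the only passage 1 tumour above any of passage 2. Lef1, Tcf7l1 and Tcf7l2 did not pass in either comparison.

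With controls alone, 7 members passed, beside 3.35% of all genes (0.955% higher, 2.39% lower): Axin2, Lgr6 and Myc rose and Btrc, Fzd1, Lrp6 and Sfrp1 fell. This comparison rests on 2 tumours a group. It called 0 members when passage 1 control replicate 1 or passage 2 control replicate 2 was left out, 1 without passage 1 control replicate 2 and 4 without prior and current replicate 1. Of 11 other settings, the call held in 6 for Lrp6, in 4 for Myc and in 4 for Sfrp1. The averaged comparison, which shares those controls, fell from 12 to 6 members without passage 1 control replicate 1 or passage 2 control replicate 2. Axin2, Btrc, Fzd1, Fzd9, Lrp6 and Myc passed there in each of the 16 leave-one-out fits. Axin2 was kept only through passage 2 groups, where it was higher. Its place among these calls and counts is therefore no support for a difference.

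Over all 6 groups, 8 members differed by the F test of the same fit, beside 4.88% of all genes: Axin2 (adjusted p = 0.00787), Fzd1 (adjusted p = 0.00754), Myc (adjusted p = 0.00836), Btrc, Lgr6, Lrp6, Tcf7 and Znrf3. Counted without a test, 5 members had no overlap between the 5 passage 1 and the 11 passage 2 tumours, beside 3.21% of all genes: Axin2, Lgr6 and Myc lay above, beside 1.25%, and Fzd1 and Fzd4 below, beside 1.96%. As Axin2 was kept only through passage 2 groups, its place in the F test and in this count is no support for a difference. The count of the F test fell to 3 members without passage 1 control replicate 1 and to 4 without passage 1 RANK-Fc replicate 1. It was 5 without passage 1 control replicate 2, passage 1 RANK-Fc replicate 2 or 3, passage 2 control replicate 2, or prior and current replicate 1.

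**Figure D2:**
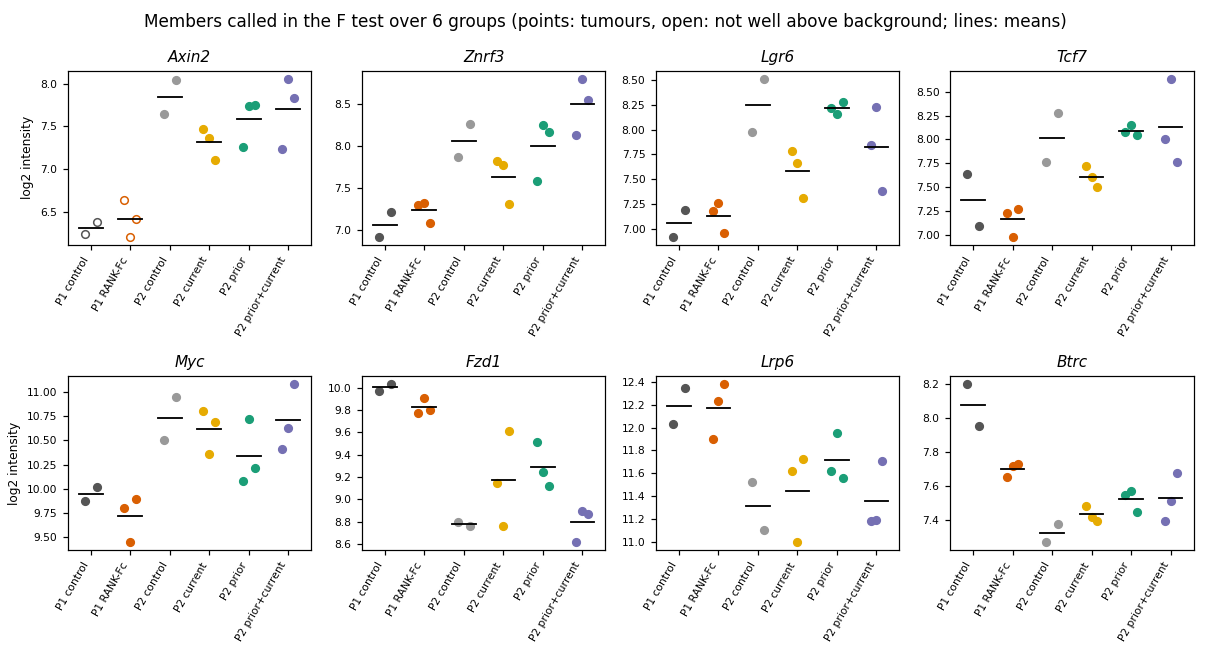
Log2 intensity (y axis) of the 8 members that passed the F test over the 6 groups (x axis), with 1 point per tumour, open where the probe was not well above background, and a line at each group mean. Axin2, Lgr6 and Myc of passage 2 lie above all passage 1 tumours, and Fzd1 lies below them.

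No Wnt member passed the threshold in a comparison with RANK-Fc. In each of the 9 comparisons that involve RANK-Fc, 0 of the 46 members had an adjusted p under 0.05 by limma, and the same held under every alternative run and with any 1 tumour left out. The comparisons share control tumours, so their values are given side by side and not as separate evidence. The share of all genes called was 0% for current RANK-Fc in passage 1, in passage 2, after prior RANK-Fc and averaged over these 3, for the interaction of the prior with the current treatment and for the contrast of the treatment's effect in passage 2 with that in passage 1. It was 0.00708% for prior RANK-Fc alone, 0.0849% for prior and current against control (0.0778% higher, 0.00708% lower) and 0.382% for prior averaged over both passage 2 backgrounds (0.283% higher, 0.0991% lower). The members are therefore described by their values and by how many had an unadjusted p under 0.05. Groups held 2 or 3 tumours, and the share of all genes without overlap between such groups was not counted. A lack of overlap is therefore a description of the named member alone.

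**Figure D3:**
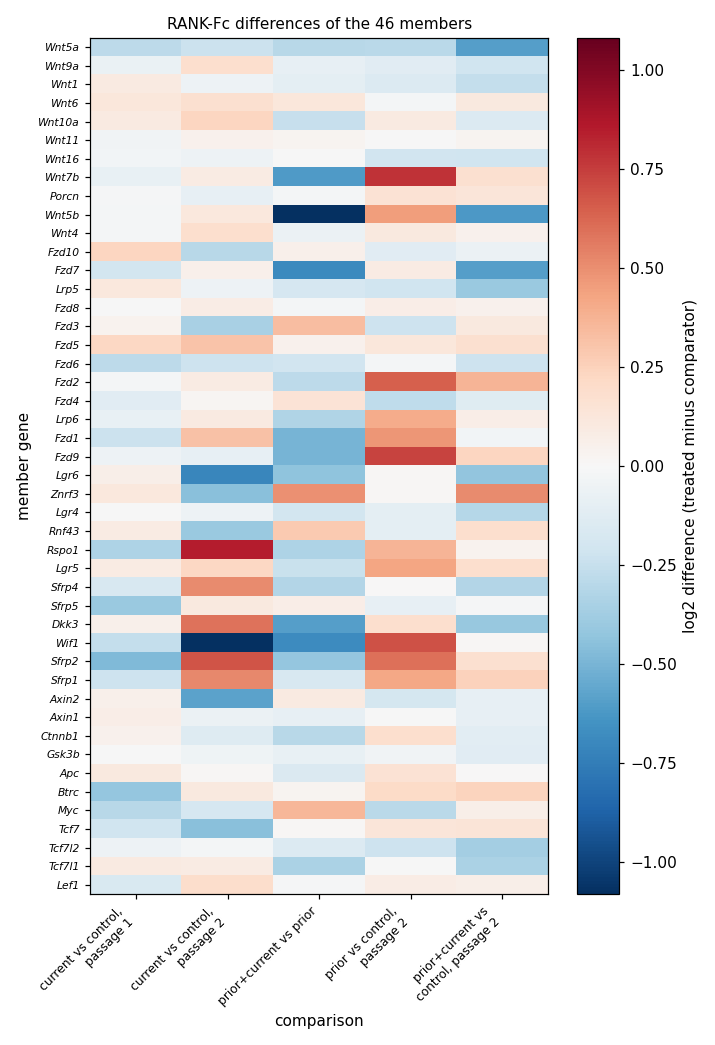
Log2 differences (colour) of the 46 members (y axis) in 5 comparisons with RANK-Fc (x axis). Wnt5b is the darkest blue cell of the prior and current against prior column, at -1.07, and Wif1 that of the current against control column in passage 2, at -1.08 (-0.58 without current replicate 3), and no cell passed the threshold.

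In passage 1, RANK-Fc gave 2 members an unadjusted p under 0.05, both lower, beside 1.66% of all genes (0.743% higher, 0.913% lower). Btrc was lower in all 3 treated tumours than in both controls, with a difference of -0.42 ± 0.10 (adjusted p = 0.9996), which was -0.25 without passage 1 control replicate 1. The further Btrc probe, below the filter, gave -0.0015. Sfrp5, a frizzled-related inhibitor well above background in 9 of 16 tumours, was kept only through the passage 1 controls, the group where it was highest, so its place in that count is no support for a difference. It read 7.10 and 6.40 in the controls and 6.39, 6.39 and 6.38 with RANK-Fc, so that control replicate 1 was the tumour that stood apart. That tumour also had the highest adipocyte marker mean, whose part in the Sfrp5 value was not tested. Fzd5, a frizzled receptor, had the smallest p of the higher members with Fzd10, at 6.82 and 7.38 in the controls and 7.19, 7.15 and 7.36 with RANK-Fc. Its difference of 0.23 ± 0.17 turned to -0.18 without passage 1 control replicate 1.

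In passage 2, current RANK-Fc gave 5 members an unadjusted p under 0.05, beside 4.05% of all genes (2.65% higher, 1.39% lower). Rspo1, an R-spondin, read 6.87 and 6.76 in the controls and 7.42, 7.93 and 7.39 with RANK-Fc. The groups did not overlap, and the difference was 0.85 ± 0.27 (adjusted p = 0.99996). Lgr6 was lower in all 3 treated tumours, by a log2 of -0.71 ± 0.23 (adjusted p = 0.99996), and Axin2 by -0.58 ± 0.23. The second passing Axin2 probe gave 0.06, in the other direction. Sfrp1 was higher, at 0.52 ± 0.18, and Rnf43 lower, at -0.40 ± 0.18. Without current replicate 3, whose fibroblast and muscle markers stood apart, the differences were 0.88 for Rspo1, -0.57 for Lgr6, -0.46 for Axin2, 0.42 for Sfrp1 and -0.24 for Rnf43. Without passage 2 control replicate 2, Lgr6 stood at -0.31 and Axin2 at -0.37.

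Current RANK-Fc in animals whose tumours had prior RANK-Fc gave 8 members an unadjusted p under 0.05, beside 10.1% of all genes (4.71% higher, 5.43% lower). Of the 46 members, 33 lay below 0 and 13 above, with a median of -0.15 against 0.004 over all genes. Without prior and current replicate 3, the median was -0.07 and 30 members lay below 0. In the same contrast the marker means stood at -0.39 for fibroblasts, -0.91 for skeletal muscle and 0.83 for adipocytes. Without current replicate 3 and prior replicate 1 they stood at -0.10, 0.15 and 0.60. Their part in the differences of the members was not tested. Wnt5b read 12.79, 12.55 and 12.31 with prior and 11.82, 12.23 and 10.53 with prior and current RANK-Fc, a difference of -1.07 ± 0.27 (adjusted p = 0.220). The groups did not overlap, but the difference was -0.51 without prior and current replicate 3. That tumour had the highest adipocyte marker mean of passage 2, 9.57, whose part in the Wnt5b value was not tested.

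Fzd7, a frizzled receptor linked to stem cell activity, read 9.76, 9.90 and 10.29 with prior and 9.54, 9.53 and 9.08 with prior and current RANK-Fc. The groups did not overlap, with a difference of -0.69 ± 0.19 (adjusted p = 0.244), which was -0.46 without prior and current replicate 3. The second passing probe gave -0.23. Its values were 9.84 and 9.70 in passage 1 controls, 9.43, 9.38 and 9.70 with RANK-Fc in passage 1, 9.82 and 9.93 in passage 2 controls and 9.91, 9.66 and 10.39 with current RANK-Fc. Fzd1 was lower by a log2 of -0.51 ± 0.16 (adjusted p = 0.275). The highest Fzd1 of the prior tumours, 9.51, was that of prior replicate 1, which was also highest of that group in fibroblast markers. Znrf3 and Myc were the higher members with the smallest p, at 0.50 ± 0.21 and 0.36 ± 0.15, and Znrf3 was at 0.31 without prior replicate 1 and at 0.29 without prior and current replicate 2.

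Prior RANK-Fc alone, against passage 2 controls, gave 5 members an unadjusted p under 0.05, all higher, beside 5.14% of all genes that were higher at that p, 2.58% that were lower and 7.71% in either direction. Wnt7b, a ligand of the beta-catenin branch that was well above background in 12 of 16 tumours, read 6.34 and 6.55 in controls and 7.12, 7.19 and 7.33 with prior RANK-Fc. The groups did not overlap, with a difference of 0.78 ± 0.21 (adjusted p = 0.258). In the other groups Wnt7b read 6.29 and 6.95 in passage 1 controls, 6.14, 6.91 and 6.65 with RANK-Fc in passage 1, 6.66, 6.41 and 6.76 with current and 6.44, 6.98 and 6.505 with prior and current RANK-Fc, all below the 3 prior tumours. Without prior replicate 1 the difference was 0.81.

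Fzd2, a frizzled receptor, read 9.07 and 9.18 in passage 2 controls and 9.88, 9.58 and 9.96 with prior RANK-Fc, a difference of 0.65 ± 0.20 (adjusted p = 0.366). The groups did not overlap. Averaged over both passage 2 backgrounds, Fzd2 was 0.46 ± 0.15 higher with prior RANK-Fc (adjusted p = 0.163), the smallest adjusted p of the members in the 9 comparisons with RANK-Fc. Its second passing probe gave 0.31 for prior RANK-Fc alone and 0.10 averaged. With current RANK-Fc it read 9.22, 9.06 and 9.62, and with prior and current 9.33, 9.89 and 9.504. In that averaged comparison 7 members had an unadjusted p under 0.05, beside 15.6% of all genes (8.33% higher, 7.26% lower). These 7 are 15.2% of the 46, near the share of all genes.

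Prior and current RANK-Fc together, against passage 2 controls, gave 4 members an unadjusted p under 0.05, beside 9.15% of all genes (5.74% higher, 3.41% lower). These 4 are 8.7% of the 46, near the share of all genes. Fzd7 was lower by a log2 of -0.60 ± 0.22 (adjusted p = 0.439) and Lgr4 by -0.31 ± 0.12 (adjusted p = 0.442). Without prior and current replicate 3 these were -0.37 and -0.18, without passage 2 control replicate 2 Lgr4 was also at -0.18, and the second passing Fzd7 probe gave -0.13. Wnt5a read 10.40 and 10.59 in the controls and 10.16, 10.32 and 9.39 with both treatments. The groups did not overlap, and the difference of -0.60 ± 0.24 was -0.23 without prior and current replicate 3. In the other groups Wnt5a read 9.99 and 10.32 in passage 1 controls, 9.83, 9.66 and 9.97 with RANK-Fc in passage 1, 10.29, 10.04 and 10.67 with current and 10.25, 10.22 and 10.03 with prior RANK-Fc.

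The interaction of the prior with the current treatment, which asks whether current treatment had another effect in tumours with prior treatment, gave 11 members an unadjusted p under 0.05, which is 23.9% of the 46, beside 6.94% of all genes (2.34% higher, 4.6% lower). In the same contrast the fibroblast marker mean stood at -1.21 and the skeletal muscle mean at -1.58, and at -0.20 and 0.18 without current replicate 3 and prior replicate 1, where 8 members had such a p and Fzd1 stood at -0.53. The part of these markers in the count was not tested. The smallest adjusted p was 0.508, for Fzd1 (-0.82 ± 0.22). Rspo1 stood at -1.18 ± 0.35 and Wnt5b at -1.19 ± 0.39 (-0.61 without prior and current replicate 3), and Znrf3 and Fzd3 were the higher members with the smallest p, at 0.95 ± 0.30 and 0.68 ± 0.22, or 0.58 and 0.46 without current replicate 3 and prior replicate 1. Fzd3, a receptor also used in axon guidance, read 9.28 and 9.45 in passage 2 controls, 9.20, 9.19 and 8.60 with current, 9.06, 9.19 and 9.02 with prior, and 9.36, 9.47 and 9.37 with prior and current RANK-Fc. Leaving out 1 tumour at a time moved this count between 6 and 16, the lowest when passage 2 control replicate 2 was dropped and the highest when current replicate 2 was dropped. The contrast of the treatment's effect in passage 2 with that in passage 1 gave 5 members an unadjusted p under 0.05, beside 1.80% of all genes (1.40% higher, 0.403% lower), among them Btrc (0.52 ± 0.14) and Rspo1 (1.18 ± 0.37), which were at 0.35 and 0.66 without passage 1 control replicate 1. The further Btrc probe, below the filter, gave 0.13 here. The fibroblast marker mean stood at 1.002 in this contrast, and its part was not tested.

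Averaged over the 3 backgrounds, current RANK-Fc gave 4 members an unadjusted p under 0.05, all lower, beside 3.35% of all genes that were lower at that p, 3.5% that were higher and 6.85% in either direction. Lgr6 was lower by a log2 of -0.36 ± 0.13, Fzd6 by -0.24 ± 0.09, Fzd7 by -0.28 ± 0.12 and Wif1 by -0.67 ± 0.29, with adjusted p between 0.654 and 0.708. Lgr6 was at -0.21 without passage 2 control replicate 2, Fzd7 at -0.16 without current replicate 2 and Wif1 at -0.36 without passage 1 control replicate 2. Wif1, a secreted inhibitor that binds Wnt ligands, read 10.25 and 11.56 in passage 1 controls, 11.01, 10.33 and 10.55 with RANK-Fc in passage 1, 10.85 and 11.03 in passage 2 controls, 10.78, 10.12 and 8.75 with current, 11.64, 11.48 and 11.53 with prior, and 11.14, 11.43 and 10.20 with prior and current RANK-Fc. The 3 prior tumours lay close together among the highest, with passage 1 control replicate 2, and current replicate 3 lay lowest of all.

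**Figure D4:**
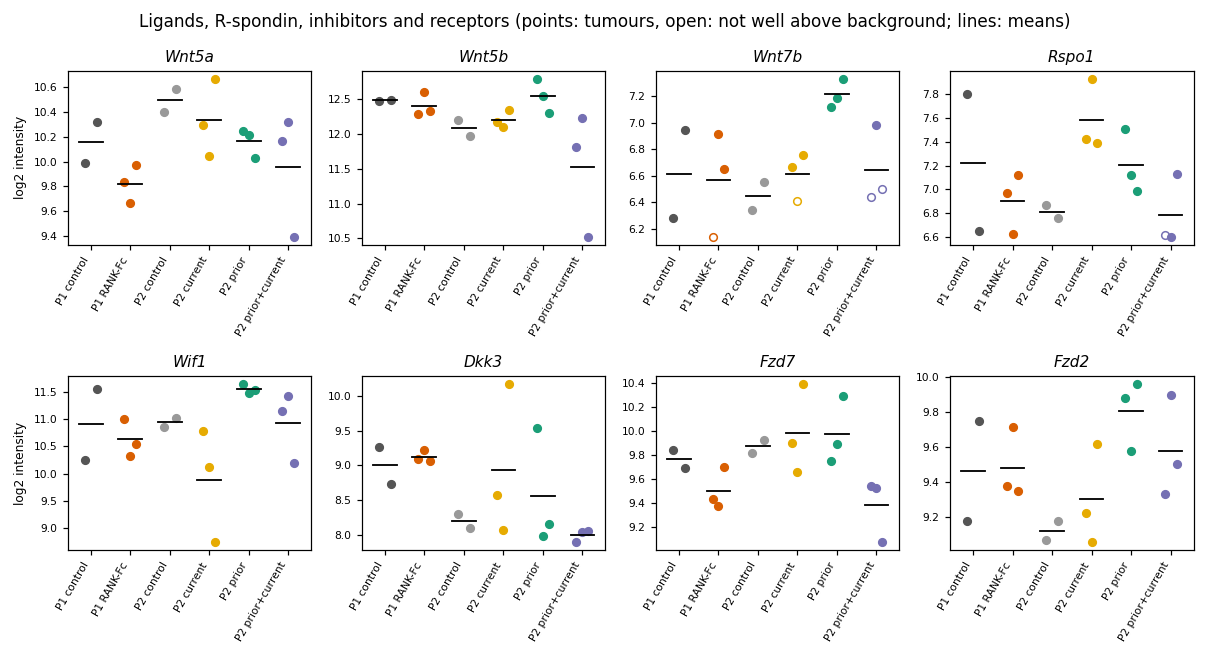
Log2 intensity (y axis) of 8 ligands, R-spondins, inhibitors and receptors, by group (x axis). Each tumour is 1 point, open where the probe was not well above background, and a line marks each group mean. Dkk3 is named with the fibroblast markers and the others in the comparisons with RANK-Fc. Wnt7b with prior RANK-Fc lies between 7.12 and 7.33, above all other tumours, and the low Wnt5b point of 10.53 is prior and current replicate 3.

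The secreted inhibitors Dkk3, Sfrp2 and Sfrp4 and the receptor Fzd1 were set against the fibroblast marker mean over the 11 tumours of passage 2. These relations were chosen after the values were seen and are given with p-values adjusted over all 14119 genes measured in every tumour, of which 9.36% had an unadjusted p under 0.05. Dkk3, a member of the Dickkopf family, read 8.30 and 8.09 in passage 2 controls, 8.57, 8.07 and 10.18 with current, 9.55, 7.99 and 8.16 with prior, and 7.89, 8.04 and 8.06 with prior and current RANK-Fc. Current replicate 3 and prior replicate 1 were the highest, as they were in fibroblast markers.

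Sfrp4 had a Pearson r of 0.90 (permutation p = 0.000640, adjusted 0.0922) and a Spearman rho of 0.85 (permutation p = 0.00179) with the fibroblast mean, and r was 0.82 without the 2 tumours farthest from the median, current replicate 3 and prior replicate 1. Its values were 8.25 and 7.08 in passage 2 controls, 7.82, 7.57 and 9.31 with current, 8.09, 7.32 and 8.41 with prior, and 7.58, 7.55 and 7.82 with prior and current RANK-Fc. Dkk3 had r of 0.93 (permutation p = 0.000810, adjusted 0.0993) and rho of 0.70 (permutation p = 0.0201), and r fell to 0.47 without those tumours, so that the relation rests on them. Fzd1 went from r of 0.83 (permutation p = 0.00132, adjusted 0.123; rho 0.79, permutation p = 0.00579) to 0.47, and Sfrp2 from 0.92 (permutation p = 0.00115, adjusted 0.114; rho 0.71, permutation p = 0.0176) to 0.45. None passed after adjustment. With the 4 group means removed, which leaves 7 degrees of freedom, r was 0.88 for Sfrp4, 0.94 for Dkk3, 0.89 for Fzd1 and 0.90 for Sfrp2. Exact 2-sided permutation within groups gave p = 0.0278, p = 0.00231, p = 0.0185 and p = 0.0278, where 0.00231 is the smallest possible, with adjusted p from 0.641 to 0.971 over all genes, of which 4.65% had an unadjusted p under 0.05. This within-group form was added after the data were seen.

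**Figure D5:**
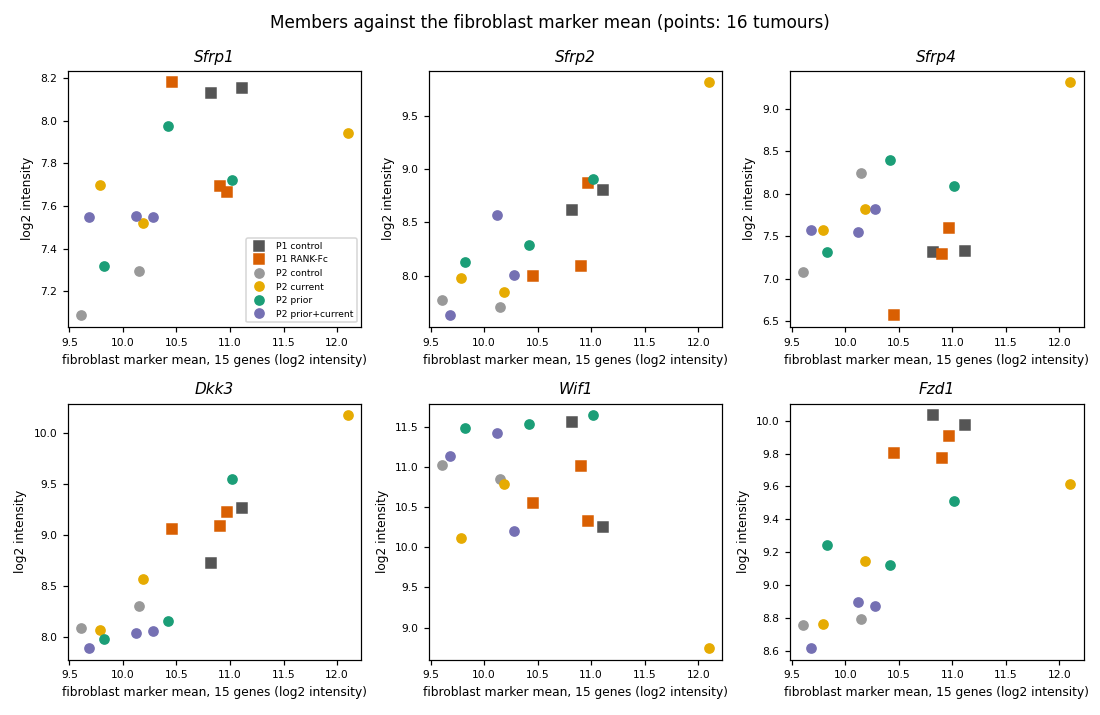
Log2 intensity of 5 secreted inhibitors and Fzd1 (y axis) against the mean of 15 fibroblast markers (x axis), with 1 point per tumour, squares for passage 1 and circles for passage 2. The circle at 12.1 on the x axis is current replicate 3, with the highest Dkk3, Sfrp2 and Sfrp4 and the lowest Wif1.

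The target genes Znrf3 and Rnf43 were set against Axin2 across the same 11 tumours, again as relations chosen after the values were seen. Znrf3 had r of 0.84 (permutation p = 0.00141, adjusted over 14118 genes 0.866) and rho of 0.89 (permutation p = 0.000560), and r was 0.70 without current replicate 3 and prior and current replicate 2. Rnf43 had r of 0.78 (permutation p = 0.00189, adjusted 0.866) and rho of 0.79 (permutation p = 0.00567), and r was 0.66 without those tumours. Among other members, Lgr6 had r of 0.54 (permutation p = 0.0873, adjusted 0.866) and rho of 0.57 (permutation p = 0.0715). Its r was 0.31 without those tumours. Myc had r of 0.47 (permutation p = 0.145, adjusted 0.873) and rho of 0.42 (permutation p = 0.201), and r was 0.66 without those tumours. Lgr5, which was lower in passage 2 without passing, had r of 0.30 (permutation p = 0.359, adjusted 0.921) and rho of 0.41 (permutation p = 0.216). Its r was 0.38 without those tumours and 0.68 with group means removed (exact permutation p = 0.102). With group means removed, r was 0.96 for Znrf3 (exact permutation p = 0.00463), 0.69 for Rnf43 (exact permutation p = 0.0370), 0.43 for Lgr6 (exact permutation p = 0.407) and 0.56 for Myc (exact permutation p = 0.174), each with an adjusted p of 1, where 2.61% of all genes had an unadjusted p under 0.05. None passed after adjustment, and in the pooled relations 5.37% of all genes had an unadjusted p under 0.05. Against the fibroblast marker mean, r was -0.74 for Rnf43, -0.62 for Znrf3 and -0.52 for Axin2. The permutation p were 0.0242, 0.0431 and 0.0943 (adjusted 0.436, 0.517 and 0.634). Without current replicate 3 and prior replicate 1, these r were 0.21, 0.15 and 0.20. The part of the fibroblast markers in the relations with Axin2 was not tested.

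Other genes of the pathway were read from 6 lists of 109 genes that are no members, of which 98 were measured. In the comparisons with RANK-Fc, 0 of the 98 passed by limma. Between passages averaged, 4 of the 98 rose and 11 fell, where of all genes 4.24% rose and 7.71% fell. Among the heparan sulphate and ligand-handling genes, Sulf2, which edits heparan sulphate, fell without overlap by a log2 of -0.92 ± 0.14 (adjusted p = 0.00146), and Trabd2b, which cleaves Wnt ligands, fell by a log2 of -0.64 ± 0.14. Of 10 co-receptors, alternative receptors and antagonists, Tspan12, a partner of Fzd4, fell (-0.38 ± 0.09), and of 21 cytoplasmic signalling genes Cxxc5 (-0.53 ± 0.11) and Csnk1d (-0.38 ± 0.09) fell. Of 23 measured genes cited as beta-catenin targets, 4 rose and 4 fell, and the 3 with the smallest p were Mmp7 (1.36 ± 0.23, adjusted p = 0.00226), a matrix protease, Sox9 (-0.997 ± 0.166), a transcription factor, and Vegfa (1.75 ± 0.30), a vessel growth factor. In the planar cell polarity list, Celsr1 (-1.50 ± 0.35) and Fuz (-1.03 ± 0.21) fell and 14 of 16 did not pass. Of 19 measured nuclear cofactors, 0 passed.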

How the data were processed

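The 16 tumours were hybridised on 8 arrays of 1 slide. The deposited files hold median spot and background intensity, processed intensity, the log10 ratio of red over green and other marks coded 0 or 1 per spot, made, per the file headers, with Agilent Feature Extraction 10.7.3.1. One more deposited table, with 8 value columns whose names match no label, was not used. Median intensity was corrected by normexp (offset 50), normalised by loess within and Aquantile between arrays and taken to log2, with 239 to 337 outlier spots an array set to missing, leaving 14 genes fewer than 9 residual degrees of freedom. Between 47.5% and 56.5% of spots were well above background and 0 were saturated, and the number of tumours limits the precision. The brightest passing probe stood for a gene, named through RefSeq (GRCm38.p6).

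All 16 channels were fitted with limma 3.58.1 in R 4.3.3 (6 group means, dye, array as block, eBayes), with Benjamini-Hochberg adjustment over 14131 genes within each of 12 comparisons. The intraspot correlation, 0.416 by limma, was corrected to 0.232 from simulated data, where limma's estimate was too high. Errors are standard errors of the fit. P-values of the fit set each difference against the spread between tumours within groups, pooled over all 16 channels and moderated across genes. Tumours of a passage 2 group may share a donor, which the fit does not hold. Relations used 100000 permutations, 2-sided. Members and lists were chosen with earlier results of these data known. Members named are those called in any comparison, the 2 with the smallest p in each direction of each comparison and the 3 of each role with the widest range of group means, unless the text says otherwise. The fit was tested on simulated data. Alternatives covered background, normalisation, filter, probe choice, dye, correlation, log ratios, variance trend and leaving out each tumour.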

Additional observations from a re-analysis of the deposited data

How the results depend on the processing

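No paired analysis was possible because the replicate numbers only follow the order of the samples and the labels tie no tumour of one group to a tumour of another. In the 9 comparisons with RANK-Fc, the count of members called stayed at 0 under every alternative run. The members of the passage comparison kept their direction under each alternative, where the filter on all 16 channels left 37 members to test and 10 of these 12. With log ratios alone, which leaves 2 residual degrees of freedom, 0 members were called over the 6 groups, 0 between passage controls and 0 between passages averaged. The F test called 5 members on Feature Extraction processed signals. Between passage controls 4 were called with median centring and 4 without the dye term. With 1 tumour left out the counts ran from 3 to 10 for the F test, from 0 to 7 for passage controls and from 6 to 14 for passages averaged. The passage 1 difference of Fzd5 with RANK-Fc ran from -0.18, without passage 1 control replicate 1, to 0.61 with 1 tumour left out. Median centring moved the median of all genes to 0.10 for prior RANK-Fc alone and the share of passage calls that were higher from 35.5% to 23.4% over all genes, with 9 members called of which 3 were higher. Processed signals raised the passage difference of Axin2 to 3.24 and to 4.10 in the controls. Without current replicate 3 and prior replicate 1 together, chosen after seeing the data, 10 members were called between passages averaged, 7 between controls and 8 over the 6 groups. Of 1527 values of named members under alternatives, 1 turned its direction, 55 lost a call under another setting and 84 lost one with 1 tumour left out. The cause of these moves was not tested.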
